A study of Mus musculus with 12 samples.

Results

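Resting macrophages that had received saline were compared between Rasgef1b knockout and wild-type mice, with 3 arrays for each genotype out of 12 in the series. The arrays were chosen by their sample titles, and the values compared are RMA log2 intensities, the logarithm to base 2 of an array's normalised brightness, so a difference of 1 is a doubling. The cells were macrophages grown from bone marrow in medium with 30% L929-conditioned medium. Wild-type mice were set against mice labelled Rasgef1b_fl/fl_vav-icre, in which Cre recombinase under the Vav promoter, active in blood-forming cells, removes a floxed part of Rasgef1b. The labels name no group with Cre alone or with the floxed gene alone, so an effect of either cannot be told apart from loss of the gene. The other 6 arrays came from cells of the same genotypes given R848, an agonist of Toll-like receptors 7 and 8, for 4 h. The labels give neither strain, age nor sex and no exposure time for saline. Whether the 3 replicates are separate animals or cultures is not stated.

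Rasgef1b belongs to a family of guanine nucleotide exchange factors, proteins that load Ras-like GTPases with GTP, and in macrophages it is known as a gene induced by Toll-like receptor agonists. Unstimulated macrophages keep a low tonic type I interferon signal, in which the receptor signals to transcription factors that raise antiviral genes. Macrophages grown in L929-conditioned medium, which supplies the growth factor CSF1, go on dividing, and growing cells make ribosomes, nucleotides, lipids and DNA and take up glucose.

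The 6 saline arrays were alike. Over the 14079 genes tested, arrays of the same genotype correlated between 0.9909 and 0.9943 and arrays of different genotype between 0.9893 and 0.9921. The first principal component of these arrays held 30.5% of the variance and put the 3 wild-type arrays at -7.61, -8.23 and -11.2 and the 3 knockout arrays at 9.47, 10.2 and 7.36. The mean of 11 macrophage markers lay between 9.95 and 10.1 on each saline array, and 0 of the 11 passed the test. Of these markers 9 were above 0 in knockout minus wild type and 2 below, with a median of 0.113. Groups did not overlap for 3 of them, all higher in knockout (6.65% of all genes tested). The typical gene had a replicate SD of 0.100 in wild type and 0.101 in knockout, and differed by -0.0133 between genotypes, with 54.7% of genes lower in knockout and 45.1% higher. Signal from 3 Y-linked genes (Uty, Kdm5d and Eif2s3y, between 5.78 and 7.60) was present on all 6 arrays and Xist did not pass the filter on dim rows.

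Rasgef1b itself, on chromosome 5 (GRCm38.p6, chr5:99217420-99252927), was lower on the knockout arrays but still well above the dim range. It read 9.03, 9.19 and 9.14 in wild type and 8.63, 7.88 and 8.72 in knockout, and the groups did not overlap. Knockout replicate 2 was lowest. The difference was -0.71 ± 0.21 (SE, n = 3 a group), a level 1.64-fold lower, which did not pass after adjustment over all genes (limma adjusted p = 0.158). A two-sided exact permutation test of these 6 values gave p = 0.1, the smallest that 3 arrays against 3 allow. Without knockout replicate 2 the difference was -0.445. The labels do not say which part of the gene is floxed, and the row summarises probes along the transcript, so this value is no measure of the deletion.

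The genotypes differed past the threshold (limma adjusted p under 0.05) at 47 genes, 0.334% of those tested. Of these, 20 were higher in knockout cells (0.142%) and 27 lower (0.192%). Only 5 differed at least 2-fold (0.0355%), and these were higher in knockout cells: Akr1e1, Erdr1, Kcnma1, Mid1 and Gdf3. The other 15 higher genes included antiviral and class I histocompatibility genes, and the lower genes included genes of nucleotide synthesis, the nucleolus and glucose metabolism. The smallest difference past the threshold was 0.36 in size and the median size 0.553. For all 47 the groups did not overlap, beside 16.1% of all genes tested. The 47 were chosen on these same values, so this adds no support to the calls. At an unadjusted p under 0.05 there were 1767 genes (12.6%), of which 700 were higher (4.97%) and 1067 lower (7.58%).

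The count of 47 depended on single arrays and on the arrays of the fit. With wild-type saline replicate 1, 2 or 3 removed, 20, 28 and 10 genes passed, of which 17, 25 and 9 were among the 47. With knockout saline replicate 1, 2 or 3 removed, 34, 13 and 65 passed, of which 23, 13 and 32 were among them. With the R848-treated wild-type replicate 1, 2 or 3 removed, which enter through the shared estimate of spread, 29, 26 and 25 passed. With the 6 saline arrays alone 8 genes passed (0.0568%). These were Akr1e1, Erdr1, Gdf3, Kcnma1, Mid1, Mybl2, Uck2 and Apol9b, an apolipoprotein L family gene at 0.94 ± 0.10 (SE, limma adjusted p = 0.00622, and 0.144 with all 12 arrays). Cyclic loess scaling between arrays gave 28 higher and 22 lower genes, so the lower genes were the smaller group there. The sign of the difference of all 47 was the same in every setting run on the rows used here.

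**Figure D1:**
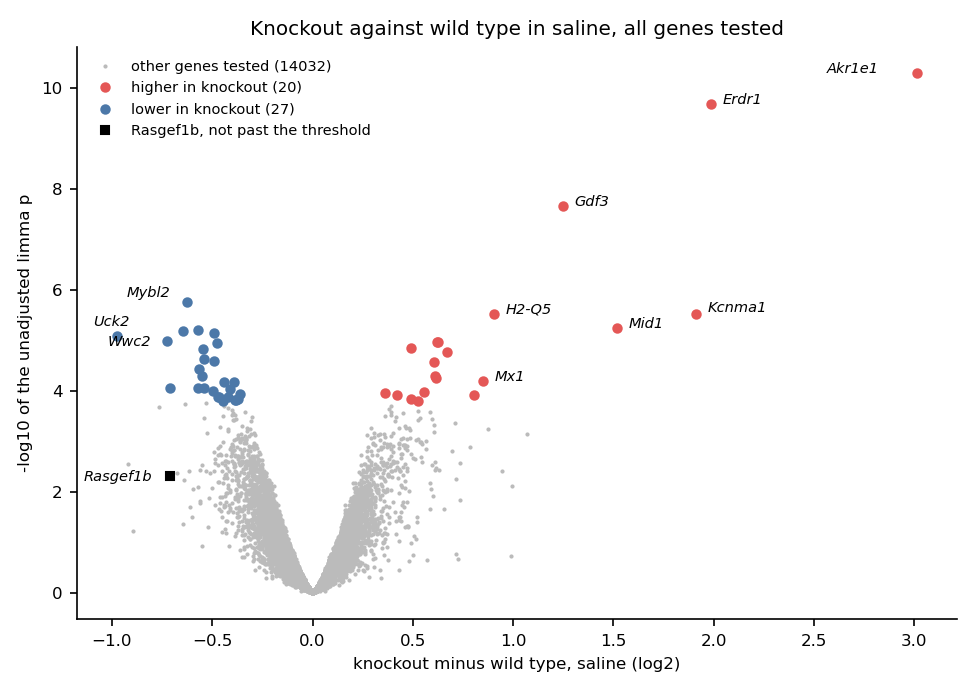
Difference between knockout and wild type in saline (x axis, log2) against the unadjusted limma p of the same gene (y axis, -log10 scale) for the 14079 genes tested. The 20 genes past the threshold that were higher in knockout are red, the 27 lower are blue and Rasgef1b is a black square. Akr1e1, Erdr1, Kcnma1, Mid1 and Gdf3 stand apart on the right, and Uck2 is the farthest of the blue points to the left.

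Akr1e1, which encodes an aldo-keto reductase, was in the dim range in wild type and clearly detected in knockout. Its values were 3.82, 4.30 and 3.97 in wild type and 7.02, 7.39 and 6.72 in knockout, a difference of 3.01 ± 0.17 (SE, limma adjusted p = 7.27e-07). The wild-type values lay under the dim limit, 4.31 to 4.34 on these arrays, so the 8.07-fold difference compares a measured level with one in the dim range. Wild-type values with R848 were under it too, so Akr1e1 passed the filter on dim rows only through knockout arrays. Of 6 aldo-keto reductases tested, Akr1e1 was the 1 past the threshold, and Akr1cl was at 0.11, Akr7a5 at 0.03 and Akr1b8 at -0.02. The filter had removed 8 of the 14 on the array.

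Erdr1 and Mid1 lie next to each other at the pseudoautosomal end of the X chromosome. Erdr1, described as an erythroid differentiation regulator and annotated by RefSeq as a transcribed pseudogene, read 9.63, 9.24 and 9.24 in wild type and 11.32, 11.32 and 11.43 in knockout, a difference of 1.99 ± 0.13 (SE, limma adjusted p = 1.51e-06). Mid1, a RING-type ubiquitin ligase of microtubules, read 7.42, 7.72 and 7.33 in wild type and 9.28, 8.93 and 8.81 in knockout, a difference of 1.52 ± 0.22 (SE, limma adjusted p = 0.01). For both genes each knockout array was more than 1 log2 unit above each wild-type array. The Mid1 call was lost without wild-type saline replicate 3 (adjusted p = 0.0529). Second rows of these genes differed by 1.80 for Erdr1 and 0.67 for Mid1. Asmt, the third pseudoautosomal gene tested, differed by -0.01, and the X-linked gene Kdm6a by 0.17.

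Kcnma1, the pore-forming subunit of the large-conductance calcium-activated potassium channel, read 10.19, 10.50 and 10.34 in wild type and 11.66, 12.64 and 12.46 in knockout. Knockout replicate 1 was the lowest of the 3 but remained above all wild-type arrays, and the difference was 1.91 ± 0.26 (SE, limma adjusted p = 0.00718). A second row of Kcnma1, which did not pass the filter, had means of 3.85 in wild type and 3.90 in knockout, a difference of 0.05. The call therefore rests on the brighter row alone. Among 11 potassium channel genes tested no other passed, with Kcnn4 at -0.25 and the auxiliary subunit Kcnmb2 at -0.17. Gdf3, a ligand of the TGF-beta family, read 4.91, 5.36 and 5.23 in wild type and 6.26, 6.61 and 6.37 in knockout, a difference of 1.25 ± 0.11 (SE, limma adjusted p = 0.000102). Of 23 genes of the TGF-beta, activin and BMP pathway Gdf3 was the 1 that passed, with the receptor genes Acvr1 at -0.25, Acvr2a at -0.23 and Bmpr2 at 0.19. The calls of Akr1e1, Erdr1, Kcnma1 and Gdf3 held without each of the 12 arrays in turn.

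**Figure D2:**
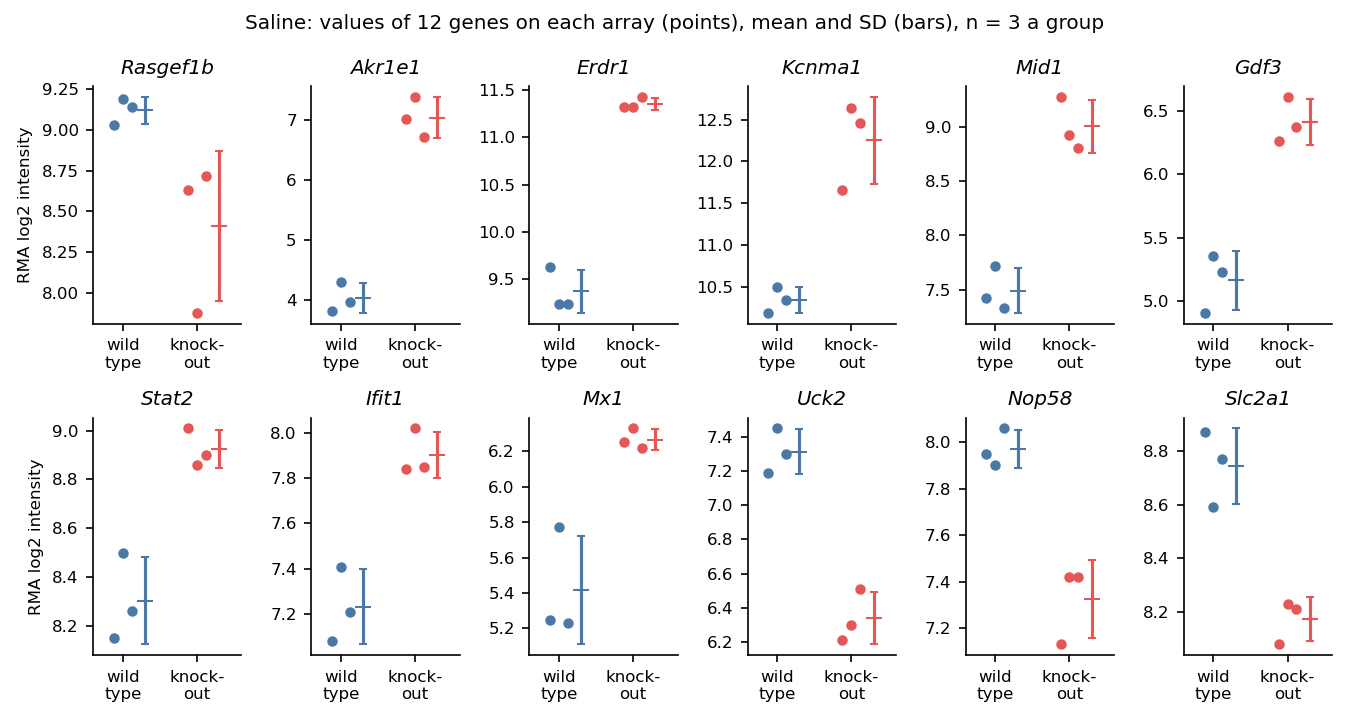
RMA log2 intensity (y axis, a separate scale for each gene) of Rasgef1b and 11 genes past the threshold on the 3 wild-type (blue) and 3 knockout (red) saline arrays. Points are arrays, and bars give the mean and SD of n = 3. Groups do not overlap for any of the 12 genes, and Rasgef1b shows the wide knockout spread, from 7.88 to 8.72.

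Antiviral genes that type I interferon raises were mostly above their wild-type values in resting knockout cells. Of 38 tested, 3 rose past the threshold (Mx1, Ifit1 and Rsad2), 0 fell, 35 had a difference above 0 and 22 had groups that did not overlap, all 22 higher in knockout (6.65% of all genes tested). Their median difference was 0.303, beside -0.0133 over all genes, and between 0.233 and 0.369 without any 1 array. The mean of the 38 genes was 7.76, 8.02 and 7.90 on the wild-type arrays and 8.17, 8.20 and 8.20 on the knockout arrays. Wild-type replicate 1 was lowest and wild-type replicate 2 nearest to the knockout.

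Mx1, named for a dynamin-like antiviral GTPase and annotated by RefSeq as a transcribed pseudogene in the C57BL/6J assembly, read 5.25, 5.77 and 5.23 in wild type and 6.25, 6.33 and 6.22 in knockout, a difference of 0.85 ± 0.15 (SE, limma adjusted p = 0.034). Ifit1, which binds foreign RNA caps, read 7.08, 7.41 and 7.21 in wild type and 7.84, 8.02 and 7.85 in knockout, a difference of 0.67 ± 0.11 (SE, limma adjusted p = 0.0136). Rsad2, which encodes the antiviral enzyme viperin, read 8.33, 8.56 and 8.46 in wild type and 9.05, 9.07 and 8.89 in knockout, a difference of 0.55 ± 0.10 (SE, limma adjusted p = 0.0432). In each of the 3 genes wild-type replicate 2 was the highest of its group and the groups did not overlap. Stat2, a transcription factor that acts downstream of the interferon receptor, read 8.15, 8.50 and 8.26 in wild type and 9.01, 8.86 and 8.90 in knockout. Its difference of 0.62 ± 0.09 (SE, limma adjusted p = 0.0107) was the 1 past the threshold among 16 genes of the interferon signalling chain, where Irf7 was at 0.23 and Irf9 at 0.12. The antiviral helicase gene Ddx60 was at 0.61 (limma adjusted p = 0.134) and overlapped. The calls of these genes depended on the arrays used. That of Stat2 was lost without wild-type saline replicate 1 or 3 (adjusted p up to 0.0605), that of Ifit1 without either of these or knockout saline replicate 2 (up to 0.0891), and those of Mx1 and Rsad2 in 6 and 8 of the 12 cases (up to 0.141 and 0.161).

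The promoters of Ifit1, Rsad2 and Stat2 hold the core letters of the interferon-stimulated response element, a sequence known from the promoters of interferon-induced genes. The promoter of Mx1 was not analysed here. The stretches that hold it are shown because these genes rose together. They are RefSeq sequence of build GRCm38.p6 on the strand of the gene, with matches in capitals. The motif searched was GAAA, any 2 bases, GAAA, on both strands of the 250 bases before the gene start.
Ifit1, chr19:34640769-34640828: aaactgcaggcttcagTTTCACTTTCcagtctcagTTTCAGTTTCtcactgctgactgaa
Rsad2, chr12:26456538-26456597: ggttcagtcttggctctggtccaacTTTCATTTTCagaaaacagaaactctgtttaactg
Stat2, chr10:128270251-128270310: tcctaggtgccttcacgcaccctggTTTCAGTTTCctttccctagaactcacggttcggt
All of these matches lie on the strand opposite to the gene, and they start 104 and 85 bases before the start of Ifit1, 120 before that of Rsad2 and 222 before that of Stat2. The motif was found for 3 of the 14 higher genes with a promoter sequence (21.4%), for 1 of 24 lower genes (4.17%, Nol10), and for 3.36% of the 10944 tested genes with one. Of all 32851 promoters, 2.98% held it. A match describes letters, not a bound site.

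Other interferon-related families gave few calls. Of 8 PYHIN genes, which encode cytosolic DNA sensors, 1 rose, Ifi204, from 8.23, 8.65 and 8.40 to 8.89, 9.01 and 8.95 (0.52 ± 0.10, SE, limma adjusted p = 0.0484). Its call was lost in 11 of the 12 cases with 1 array left out (adjusted p up to 0.17), and also with the saline arrays alone, no filter, median centring, array weights or an estimated correlation between same-numbered arrays. Ifi213 was at 0.78 and Ifi209 at 0.74, neither past the threshold, and Ifi208 at -0.61 with overlapping groups. Of 10 guanylate-binding proteins and immunity-related GTPases, which act on vacuoles that hold microbes, 0 passed and all 10 were above 0, with a median of 0.352, led by Gbp7 (0.61, adjusted p = 0.098) and Irgm2 (0.55, adjusted p = 0.107). With 1 array left out, up to 1 of the 10 passed, as higher in knockout. Of 7 Schlafen genes 0 passed and all 7 were above 0, with a median of 0.283. Slfn4 had the largest difference of these, 0.99 (adjusted p = 0.194), with 4.59, 5.19 and 4.75 in wild type and 5.26, 6.23 and 6.02 in knockout.

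Genes of antigen presentation by MHC class I gave 2 calls of 21, both in the Q region of chromosome 17, where RefSeq annotates H2-Q5 as a transcribed pseudogene. H2-Q5 read 5.54, 5.85 and 5.44 in wild type and 6.79, 6.48 and 6.27 in knockout, a difference of 0.90 ± 0.12 (SE, limma adjusted p = 0.00718), and was called without each of the 12 arrays. H2-Q4 read 6.34, 6.55 and 6.62 in wild type and 6.95, 7.07 and 6.96 in knockout, a difference of 0.49 ± 0.10 (SE, limma adjusted p = 0.0474), and lost its call in 10 of those 12 cases (adjusted p up to 0.17). The knockout arrays were above all wild-type arrays for both. Second rows differed by 0.27 and 0.20, and H2-Q genes are close copies, so their probes may share signal. The list's median was 0.0767, with H2-T24 at 0.43 (adjusted p = 0.0896) and H2-Q10 at -0.52 (adjusted p = 0.394). Of 10 MHC class II presentation genes 0 passed and all 10 were above 0, with a median of 0.152 and H2-Aa at 0.39.

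The remaining higher genes have varied roles. Hpse, the heparan sulfate-cleaving enzyme heparanase, read 8.35, 8.25 and 8.36 in wild type and 8.75, 9.48 and 9.14 in knockout, a difference of 0.80 ± 0.15 (SE, limma adjusted p = 0.0447). Knockout replicate 1 lay closest to the wild type, and the call was lost in 9 of the 12 cases with 1 array left out (adjusted p up to 0.155). A second row of Hpse, which did not pass the filter, had means of 3.45 in wild type and 3.64 in knockout (0.18). Sgsh, a lysosomal enzyme of heparan sulfate breakdown, rose by 0.62, the kinase gene Dyrk1b by 0.61 and the semaphorin gene Sema4a by 0.60. Slc49a4, a lysosomal membrane transporter gene, rose by 0.49, the sorting nexin gene Snx32 by 0.42 and Susd6 by 0.36. With 1 array left out, the call of Slc49a4 was lost in 2 of the 12 cases (adjusted p up to 0.0869), that of Sema4a in 3 (0.0891), of Sgsh in 5 (0.11), of Dyrk1b in 6 (0.103), of Snx32 in 10 (0.141) and of Susd6 in 12 (0.156). The last of the 20 has a gene-model name.

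**Figure D3:**
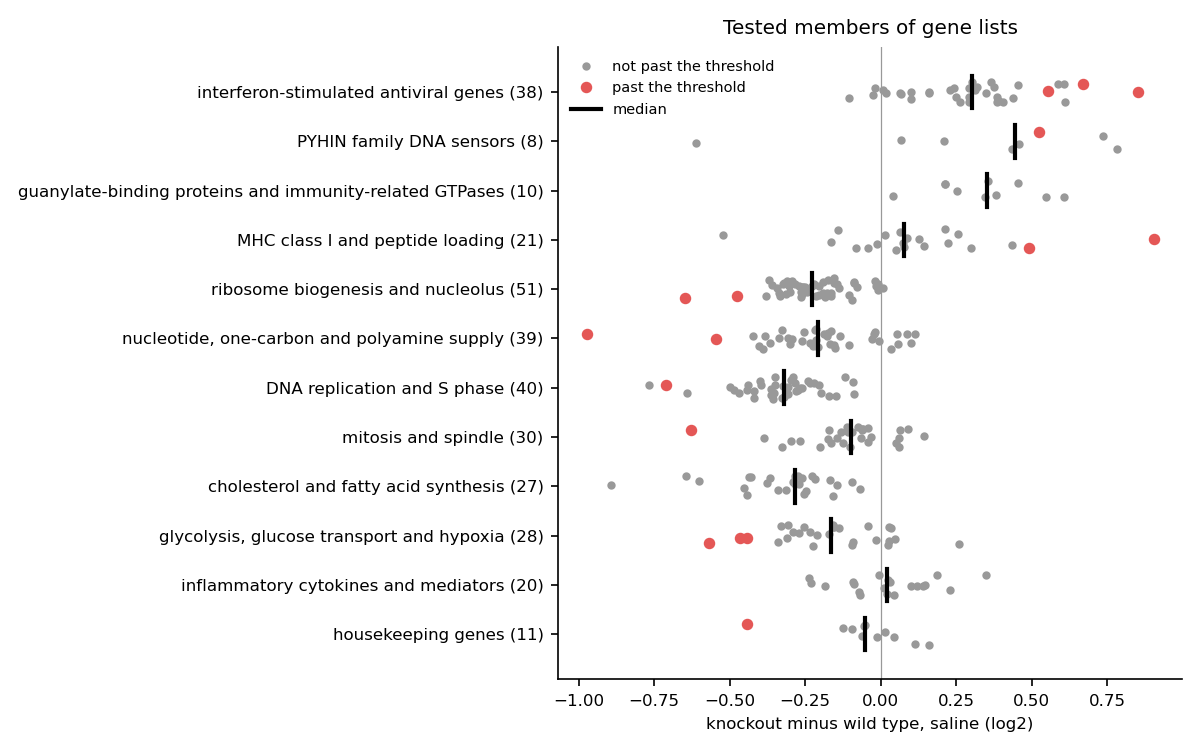
Difference between knockout and wild type in saline (x axis, log2) of each tested member of 12 gene lists, with the number tested in parentheses. Red points are past the threshold, grey points are not, and black bars are medians. Antiviral, PYHIN and guanylate-binding lists have medians between 0.303 and 0.445, ribosome biogenesis, replication and lipid synthesis lists between -0.322 and -0.227, and housekeeping genes one of -0.0533.

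Genes that supply nucleotides and build ribosomes were mostly below their wild-type values in knockout cells. Of 39 genes of nucleotide, one-carbon and polyamine supply 2 fell, Uck2 and Adss, 33 were below 0 and 14 had groups that did not overlap, all 14 lower in knockout (9.43% of all genes tested), with a median of -0.207. Uck2, the kinase that salvages uridine and cytidine, read 7.19, 7.45 and 7.30 in wild type and 6.21, 6.30 and 6.51 in knockout, a difference of -0.97 ± 0.14 (SE, limma adjusted p = 0.0106). Adss, the enzyme that commits IMP to AMP, read 8.86, 8.92 and 9.06 in wild type and 8.45, 8.30 and 8.45 in knockout, a difference of -0.55 ± 0.09 (SE, limma adjusted p = 0.0124). For both genes every knockout array lay under every wild-type array. Both calls were lost without wild-type saline replicate 3 or knockout saline replicate 2, with adjusted p up to 0.0659 and 0.0881. A second row of Uck2, which did not pass the filter, had means of 3.19 in wild type and 3.07 in knockout (-0.12). The one-carbon enzyme genes Mthfd1l (-0.42, adjusted p = 0.0939) and Mthfd1 (-0.40, adjusted p = 0.12) did not pass.

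Of 51 ribosome biogenesis and nucleolar genes 2 fell, Nop58 and Ltv1 (0.192% of all genes tested fell), and 0 rose. Below 0 were 50 of them (54.7% of all genes tested), and 32 had groups that did not overlap, all 32 lower in knockout (9.43%). The median was -0.227, and between -0.253 and -0.213 without any 1 array. Their mean was 7.16, 7.12 and 7.20 on the wild-type arrays and 6.90, 6.92 and 6.99 on the knockout arrays, so all knockout arrays lay under all wild-type arrays. Nop58, a core protein of the particles that methylate ribosomal RNA, read 7.95, 7.90 and 8.06 in wild type and 7.13, 7.42 and 7.42 in knockout, a difference of -0.65 ± 0.09 (SE, limma adjusted p = 0.01). Ltv1, which helps assemble the small ribosomal subunit, read 7.17, 7.16 and 7.31 in wild type and 6.79, 6.71 and 6.71 in knockout, a difference of -0.48 ± 0.07 (SE, limma adjusted p = 0.0107). The Nop58 call was lost without wild-type saline replicate 3 (adjusted p = 0.0543), and that of Ltv1 without that array or knockout saline replicate 2 (up to 0.0768). Nop56 (-0.38), Gar1 (-0.37), Bop1 (-0.36) and Ddx21 (-0.34), other nucleolar factors, did not pass. Outside the list, Mdn1, an ATPase that matures the large subunit, fell by 0.41 and the nucleolar gene Nol10 by 0.45, and they lost their calls in 9 and 10 of the 12 cases with 1 array left out (adjusted p up to 0.146 and 0.18). Myc, a known driver of such genes, read 7.71, 7.93 and 7.83 in wild type and 7.08, 7.47 and 7.45 in knockout, a difference of -0.49 (limma adjusted p = 0.115) that did not pass. Of 12 tested genes of the Myc, Max and Mxd network 0 passed, 7 were above 0 and 5 below, with a median of 0.0217.

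All 40 tested genes of DNA replication and S phase were below 0 (54.7% of all genes tested), with a median of -0.322. However, 1 passed, lower in knockout (0.192% of all genes tested). Groups overlapped for 34, and 6 were lower without overlap, beside 9.43% of all genes tested. Hells, a chromatin remodeller needed for DNA methylation, read 6.49, 6.70 and 6.85 in wild type and 5.88, 5.75 and 6.28 in knockout, a difference of -0.71 ± 0.13 (SE, limma adjusted p = 0.0405). Its call was lost in 8 of the 12 cases with 1 array left out (adjusted p up to 0.158). The list's mean was 6.90, 7.16 and 7.23 in wild type and 6.69, 6.58 and 7.01 in knockout, and knockout replicate 3 lay above wild-type replicate 1. The replication licensing gene Cdc6 (-0.77, adjusted p = 0.0572) and the helicase subunit gene Mcm5 (-0.64, adjusted p = 0.169) did not pass. Of 30 mitosis and spindle genes tested 24 were below 0, with a median of -0.10, which ranged from -0.314 to 0.0333 when 1 array was left out. Mybl2, a transcription factor of dividing cells, was the 1 called, at 5.85, 5.90 and 6.06 in wild type and 5.34, 5.24 and 5.35 in knockout (-0.63 ± 0.08, SE, limma adjusted p = 0.00623). It held without each of the 12 arrays, while a second row of Mybl2 differed by -0.09.

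Glucose metabolism gave 3 calls among 28 genes, all lower (0.192% of all genes tested). Below 0 were 22 of the 28 (54.7% of all genes tested), with a median of -0.163. Slc2a1, the glucose transporter GLUT1, read 8.87, 8.59 and 8.77 in wild type and 8.08, 8.23 and 8.21 in knockout, a difference of -0.57 ± 0.08 (SE, limma adjusted p = 0.01). Pgk1, the glycolytic enzyme phosphoglycerate kinase, read 10.56, 10.45 and 10.71 in wild type and 10.17, 10.03 and 10.19 in knockout, a difference of -0.44 ± 0.08 (SE, limma adjusted p = 0.034). Slc16a1, the lactate transporter MCT1, read 6.56, 6.40 and 6.55 in wild type and 5.99, 6.03 and 6.09 in knockout, a difference of -0.47 ± 0.09 (SE, limma adjusted p = 0.0461). None of the 3 overlapped between genotypes. The Slc2a1 call was lost without wild-type saline replicate 3 (adjusted p = 0.0529), and those of Pgk1 and Slc16a1 in 6 and 10 of the 12 cases (up to 0.154 and 0.155). A second row of Slc2a1 differed by -0.20. Gapdh differed by -0.10 (adjusted p = 0.569), and Pgk1 was also the 1 called gene among 11 housekeeping genes, whose median was -0.0533.

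All 27 tested genes of cholesterol and fatty acid synthesis were below 0, with a median of -0.283, and 0 passed. The mean of the list was 7.55, 7.42 and 7.42 in wild type and 7.29, 7.28 and 6.84 in knockout. Knockout replicate 3 was the lowest, and the median was -0.15 at its nearest to 0 when 1 array was left out. Scd1, the desaturase that makes oleate, read 6.72, 6.42 and 5.78 in wild type and 6.53, 5.39 and 4.32 in knockout (-0.89, limma adjusted p = 0.416), with overlapping groups and a wide spread. Fads2 was at -0.64, Cyp51 at -0.60 and Sqle at -0.45, none past the threshold.

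**Figure D4:**
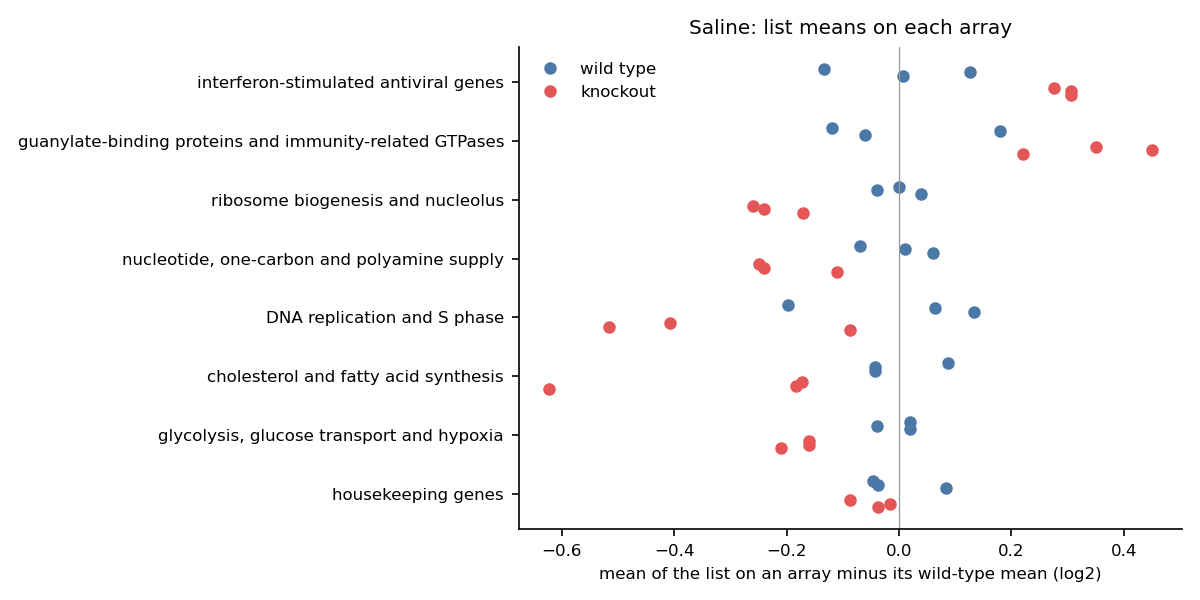
Mean of each list on each saline array minus the list's wild-type mean (x axis, log2), for 3 wild-type (blue) and 3 knockout (red) arrays of 8 lists, with replicates 1 to 3 from top to bottom within a colour. Genotypes separate for all lists shown except DNA replication and housekeeping genes. For DNA replication knockout replicate 3 lies above wild-type replicate 1, and for lipid synthesis knockout replicate 3 stands apart.

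Further lower genes came from RNA processing, mitochondria and signalling. Snrpa1, a protein of the U2 spliceosomal particle, fell by 0.55 and Bzw2, a regulator of translation initiation, by 0.57; they were the single calls among 24 spliceosome and 23 translation initiation genes. Larp7, which stabilises the 7SK RNA, and Hpf1, a cofactor of PARP1, each fell by 0.54. The histone-binding gene Ptma fell by 0.50, the mitochondrial chaperonin gene Hspd1 and the endoplasmic reticulum gene Nomo1 by 0.49, the mitochondrial folate carrier gene Slc25a32 by 0.47 and the mitochondrial elongation factor gene Gfm1 by 0.36. Wwc2, a scaffold of the Hippo pathway, read 5.70, 5.94 and 6.02 in wild type and 5.31, 5.08 and 5.10 in knockout, a difference of -0.72 ± 0.11 (SE, limma adjusted p = 0.0107). Jag1, a Notch ligand, read 6.95, 6.73 and 6.54 in wild type and 6.04, 6.25 and 6.22 in knockout (-0.57 ± 0.11, SE, limma adjusted p = 0.0405), the 1 call among 17 Notch pathway genes. The growth factor gene Pdgfb (-0.39), the NF-kB feedback gene Tnip3 (-0.38), Nudcd1 (-0.42), Septin11 (-0.39) and the iron-sulfur assembly gene Ciapin1 (-0.37) complete the 27. With 1 array left out, Nomo1 kept its call in all 12 cases, Wwc2 lost it in 2 (adjusted p up to 0.0768), Larp7 and Hspd1 in 3 (0.0976 and 0.0869), Bzw2 in 4 (0.0908) and Snrpa1 in 5 (0.141). The others lost it in 8 to 12 of the cases, with adjusted p up to 0.175. A second row of Ciapin1 differed by 0.14.

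The E-box CACGTG, a palindrome that Myc and related factors are known to bind, was looked for in the same promoters. It was found for 4 of 24 lower genes (16.7%: Bzw2, Hspd1, Septin11 and Slc16a1), 3 of 14 higher genes (21.4%: Dyrk1b, Sgsh and Slc49a4), 9.32% of tested genes with a promoter sequence and 6.02% of all promoters. Examples of the lower genes are given with the motif in capitals, on the strand of the gene in GRCm38.p6.
Slc16a1, chr3:104638437-104638496: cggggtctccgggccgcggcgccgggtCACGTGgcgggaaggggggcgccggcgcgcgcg
Hspd1, chr1:55088291-55088350: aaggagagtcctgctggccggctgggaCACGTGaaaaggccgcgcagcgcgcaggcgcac
Bzw2, chr12:36156884-36156943: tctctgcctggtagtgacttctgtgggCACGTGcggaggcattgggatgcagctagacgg
These matches start 200, 80 and 91 bases before the transcript start that the promoter table uses, which for Bzw2 is not the outer end of the gene. No printed match of one motif overlaps one of the other.

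The lists of Ras and inflammatory genes gave no calls at rest. Of 35 Ras and Rap GTPases and their regulators 0 passed, with a median of -0.00333, and Rasgef1a was at 0.16 and the Ras exchange factor gene Rasgrp3 at 0.44 (adjusted p = 0.123). Of 18 genes that ERK signalling is known to raise 0 passed and 16 were below 0, with a median of -0.103, Spry2 at -0.49 (adjusted p = 0.144) and Dusp5 at -0.45 (adjusted p = 0.106). Among 20 inflammatory cytokines and mediators, 23 chemokines and 24 Toll-like receptors and adaptors 0 passed, with medians of 0.0217, -0.103 and 0.0783. With 1 array left out, up to 2 chemokine genes passed as lower and up to 1 as higher, and 0 genes of the inflammatory and Toll-like receptor lists. The monocyte chemokine gene Ccl2 came closest, at 9.29, 9.29 and 9.68 in wild type and 8.51, 8.78 and 9.07 in knockout (-0.63, limma adjusted p = 0.0526). The interferon-induced chemokine gene Cxcl10 was at 0.69 (adjusted p = 0.111). The R848 receptor gene Tlr7 was at 0.25 and Tlr8 at 0.34, neither past the threshold. Of 14 NRF2 antioxidant genes 0 passed and 12 were below 0, with a median of -0.163.

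Markers of other blood cells that marrow cultures could hold were examined in the same arrays, and 0 of them passed. The mean of 8 dendritic cell markers was 5.70 to 5.83 in wild type and 5.84 to 5.90 in knockout. Of the 8, 5 were above 0 and 3 below, with a median of 0.0933, from Itgax at -0.23 to Cd209a at 0.52 (adjusted p = 0.0716). The mean of 3 monocyte markers was 5.82 to 6.0 in wild type and 6.19 to 6.23 in knockout, with Ly6c2 at 0.52 (adjusted p = 0.335) and overlapping. The mean of the 2 neutrophil markers tested, S100a9 and Elane, was 4.62 to 4.67 in wild type and 4.73 to 4.77 in knockout, with differences of 0.12 and 0.07. The means of these 3 lists were higher on every knockout array than on any wild-type array, as for the antiviral genes, and their part in those differences was not tested. On the R848 arrays the median was -0.01 for the dendritic cell markers, -0.0233 for the monocyte markers and 0.218 for the neutrophil markers. The 11 macrophage markers had a median of 0.113 in saline and 0.02 with R848. In bulk RNA, more cells of a type and more RNA per cell cannot be told apart. The filter on dim rows kept those 2 of 9 neutrophil markers, 1 of 5 B cell, 1 of 5 T cell and 2 of 5 NK cell markers. The defining genes Ly6g, Cd79a and Cd3e were among those it removed.

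The called genes were spread over the genome, with none on chromosomes 9 and 18, where 786 and 319 genes were tested. Chromosome 1 had most, with 1 higher and 5 lower of 806 tested, beside 0.334% called over all genes tested. Among the 100 tested genes nearest to Rasgef1b, 50 on either side, 2 were past the threshold (0.334% of all genes tested), Hpse 12 genes away and Septin11 14 genes away on the other side. Their differences ranged from -0.393 to 0.803, with a median of -0.0267. Cxcl10, 22 genes away, and Hnrnpd (-0.38, adjusted p = 0.0708), 2 genes away, were the next in size. Of the 100, 13 had knockout values all above wild type and 10 all below, beside 6.65% and 9.43% of all genes tested. An unadjusted limma p under 0.05 was found for 22 of them, beside 12.6% of all genes tested. The reason was not tested.

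The 6 arrays of R848-treated cells give a second reading of the same genotypes in other samples, where 19 genes passed (0.135% of those tested) and 1230 had an unadjusted p under 0.05 (8.74%). Both readings come from the same fit and share each gene's estimate of spread. The R848 p-values of genes called in saline are therefore not independent of the saline calls. Of the 20 genes higher in saline, 19 were also higher with R848, 16 without overlap (5.35% of all genes), and 5 passed there. Of the 27 lower genes, 27 were lower with R848, 17 without overlap (8.46% of all genes), and 2 passed. The 7 genes past the threshold under both treatments were Akr1e1, Erdr1, Gdf3, Kcnma1, Mid1, Uck2 and Wwc2, 14.9% of the saline calls and 36.8% of the R848 calls. Over all genes 58.3% were lower in knockout with R848 and 41.2% higher.

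Genotype differences with R848 are given beside the saline differences as a description. The 47 genes were chosen for their saline difference, so smaller values in other arrays, and low p-values of an interaction that contains the saline difference, can come from that choice. The median over the 20 higher genes was 0.623 in saline and 0.372 with R848, and over the 27 lower genes it was -0.493 and -0.197. The difference was smaller for 18 of the 20 and for 27 of the 27. The interaction, which tests whether the 2 genotype differences are unequal, passed for 0 of the 47 genes (limma, smallest adjusted p = 0.746), with 25 at an unadjusted p under 0.05, from which nothing is read. Over all genes it passed for 2 (0.0142%) and had an unadjusted p under 0.05 for 694 (4.93%). Akr1e1 read 4.32, 4.08 and 3.89 in wild type and 6.45, 6.52 and 6.90 in knockout with R848 (2.53). Kcnma1 differed by 1.98, Erdr1 by 1.87, Mid1 by 1.84, Gdf3 by 0.94, Uck2 by -0.85 and Wwc2 by -0.66 in those arrays. Dyrk1b, at 0.61 in saline, was at -0.03 with R848, and Jag1, at -0.57, was at -0.02.

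**Figure D5:**
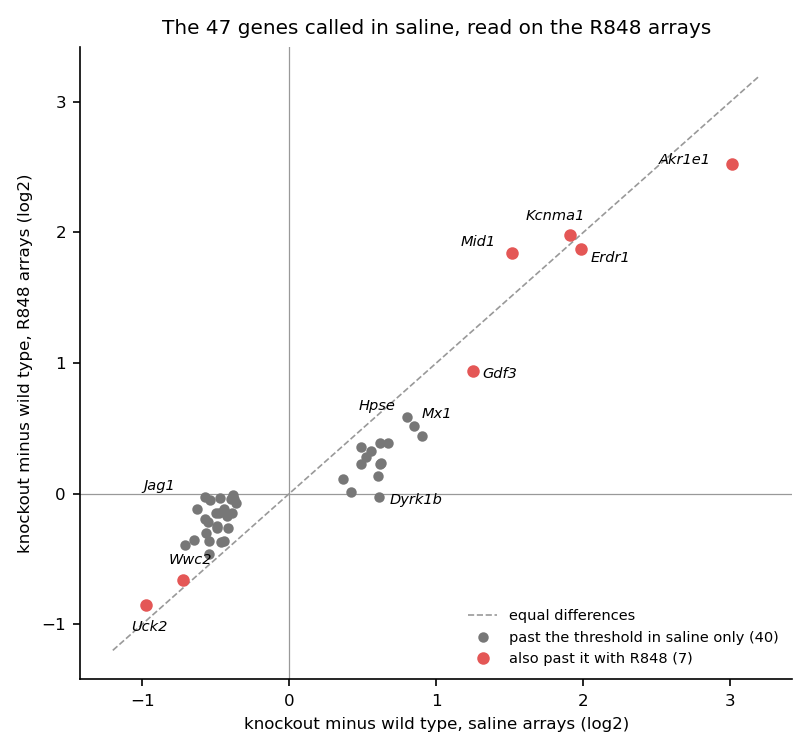
Difference between knockout and wild type on the R848 arrays (y axis, log2) against the same difference on the saline arrays (x axis, log2) for the 47 genes past the threshold in saline. The 7 genes also past it with R848 are red, the other 40 are grey, and the dashed line marks equal differences. Most grey points lie between the line and 0 on the y axis, and Dyrk1b is the single gene with opposite signs.

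With R848 the median of the antiviral genes was 0.272, of the guanylate-binding list 0.357, of ribosome biogenesis -0.203, of glycolysis -0.152 and of lipid synthesis -0.257. That of DNA replication was -0.162, beside -0.322 in saline. Without overlap and higher in knockout were 27 of 38 antiviral genes and 7 of 10 of the guanylate-binding list, beside 5.35% of all genes tested. Without overlap and lower were 25 of 51 ribosome biogenesis, 12 of 28 glycolysis, 8 of 27 lipid synthesis and 9 of 40 DNA replication genes. Over all genes tested that share was 8.46%.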

How the data were processed

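Total RNA of bone marrow-derived macrophages was amplified, labelled with biotin and hybridised to Affymetrix Mouse Gene 2.1 ST strips, per the labels' protocols. Per the submitters' processing notes, the authors used Affymetrix Expression Console and RMA, which corrects background, applies quantile normalisation and summarises probes. For both steps, version and settings were not given in the sources used here. Deposited values, as log2 intensities, ran from 2.15 to 12.85, with medians per array of 4.49 to 4.57. Because RMA brings arrays to nearly 1 distribution, a change in total RNA per cell is not visible, and differences of dim rows are compressed. Scan dates and strips were not used here.

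Of 34472 rows the platform table paired 23521 with 1 symbol, 1814 with several and 9137 with none. Of the first, 23328 matched the RefSeq gene table (GRCm38.p6), which changed 0 symbols. The brightest row stood for each of 1082 genes with several rows. A gene was tested if it exceeded the dim limit, the 40th percentile over one-symbol rows (4.31 to 4.35), on at least 3 arrays, which kept 14079 genes and removed 8101.

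Groups were taken from the titles. All 12 arrays entered 1 linear model per gene with a mean per group (lmFit and eBayes of limma 3.58.1 under R 4.3.3). P-values were adjusted by Benjamini-Hochberg over all genes tested at a threshold of 0.05. Adjusted p-values are from limma throughout. Replicates may be technical, so p-values measure only the spread between these arrays, and the number of arrays limits the precision. The residuals of same-numbered wild-type and knockout saline arrays correlated at 0.122, -0.12 and 0.143, so numbers were not taken as pairs. Same-numbered knockout saline and knockout R848 arrays had 0.272, 0.172 and 0.275, and the 2 wild-type groups 0.252, -0.0568 and 0.23. Across genotypes, wild-type R848 and knockout saline arrays had 0.276, 0.00728 and 0.234. Wild-type and knockout R848 arrays had 0.328, -0.00393 and 0.104, and wild-type saline and knockout R848 arrays 0.0401, -0.211 and 0.175. The R848 reading may share a source with the saline one, which was not tested.

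The comparison, the gene lists and the cell type markers were chosen with earlier results of these data known. Lists were described by counts and medians, without a test. Named are Rasgef1b, all genes past the threshold except gene-model names, for each list the called members and those of the largest difference up to 4, the sex-linked genes, and neighbours of Rasgef1b by the same rule. Nop56, Gar1, Bop1, Ddx21, Irf9, Gapdh, Rasgef1a, Apol9b, Ly6g, Cd79a and Cd3e were named outside it, after their values were seen. Of the 47 genes past the threshold, 38 had a promoter sequence in the RefSeq table. Alternatives covered scaling, filter, spread model, array weights (limma), blocks, rows per gene and leaving out each array.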

Additional observations from a re-analysis of the deposited data

Results flagged for a closer look

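Rows of the array without a single gene symbol were left out of the comparison, and some of them also differed. Those that pass the filter were fitted together with the 1 tested row of each gene, a fit chosen after seeing the data. In it, 10 of 3875 rows with no symbol and 4 of 1299 rows with several symbols were past the threshold in saline. Over all genes tested in the main fit that share was 0.334% (0.142% higher). All 14 were higher in knockout, by 0.513 to 2.25. They hold 11 distinct profiles, since 6 of the rows form identical pairs. For 12 of the 14 the knockout values were above all wild-type values on the R848 arrays too, beside 5.35% of all genes tested. The value 2.25 belongs to a row with no symbol that read 3.29, 2.97 and 3.06 in wild type, under the dim limit, and 5.54, 5.42 and 5.11 in knockout. An identical pair of rows read 3.36, 3.45 and 3.49 in wild type and 4.65, 4.31 and 3.99 in knockout. These rows were under the limit on the wild-type R848 arrays too, so they passed the filter only through knockout arrays. No gene is named from these rows.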

How the results depend on the processing

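The count of 47 genes was 8 with the 6 saline arrays alone, 31 with no filter, 99 with the replicate number as a fixed block and 5 with a minimum change of 2-fold. Leaving out 1 array gave between 10 (wild-type saline replicate 3) and 65 (knockout saline replicate 3) genes. With the block, 48 genes were higher and 51 lower, and all 47 were among them; the labels do not pair these arrays. Cyclic loess gave 28 higher of 50 (56.0%), against 20 of 47 (42.6%). The difference of Rasgef1b was between -0.865 and -0.445 without any 1 array, and it did not pass in any setting run. The second row of Ciapin1 reversed its direction, at 0.1433 (limma adjusted p = 0.553). For the 47 genes, 304 values with an array left out were past the threshold and 260 were not. Of the 47, 41 passed with cyclic loess, where Gfm1, Mdn1, Nol10, Pdgfb, Slc16a1 and Slc25a32 did not. The fit with 1 surrogate variable was not run. Without the dim-row filter 22180 genes were tested, and 31 of the 47 passed. The array number limits what could be called, and dim genes such as Akr1e1 in wild type carry little signal over background.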
